A study of Mus musculus with 13 samples.

Results

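Cytosolic ribosomal protein genes were taken from the deposited table by symbol, as Rpl or Rps followed by a number with at most 1 closing letter a, x or l, together with Rpsa, Rplp0, Rplp1 and Rplp2. Rows marked -ps (pseudogenes) and the S6 kinases were left out. The rule found 83 members among 35013 gene symbols, of which 51 belong to the large and 32 to the small ribosomal subunit. Of these, 47 large and 32 small subunit members had enough counts to be tested, and 4 large subunit members did not (Rpl10l, Rpl39l, Rpl6l and Rpl32l, with 1, 0, 13 and 21 counts over all 13 libraries). GENCODE annotates Rpl6l and Rpl32l as processed pseudogenes and Rps4l as a transcribed one, although the rule keeps their symbols.

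A ribosome joins a small subunit, which reads the mRNA, to a large subunit, which forms peptide bonds. Most ribosomal proteins are present in equal copy number, and their mRNAs are among the most abundant of a cell. Many of these mRNAs start with an oligopyrimidine tract (a 5' TOP), through which growth signals such as mTORC1 control their translation and storage. Unassembled members can also signal stress, since Rpl5 and Rpl11 bind the p53 ligase Mdm2.

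RNA was captured from kidneys of female mice by a tag that marks RNA made while 4-thiouracil was present. All mice carried a Uprt flox/+ allele, which supplies the enzyme that makes 4-thiouracil usable, and all were given tamoxifen to activate Megalin3'Cre-Ert, a Cre driven from the megalin gene of proximal tubule cells. The 4 libraries labelled Spns1 KO came from Spns1 flox/flox mice, Spns1 being an endolysosomal membrane protein. The 5 WT and 4 FeO (iron overload) libraries came from mice that the labels call Spns1 WT and the methods Spns1 flox/+. FeO mice received 12 mg of iron daily for 3 days and were killed 1 week later. Labels do not give the age of the mice or say whether libraries are from separate animals, so p-values measure the spread between these libraries.

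Library totals ranged from 23068023 to 71296474 counts, with the deepest libraries in Spns1 KO. Spns1 itself read 36.6 to 59.0 CPM in Spns1 KO, 39.2 to 62.9 in WT and 39.0 to 58.7 in FeO, where CPM is a count relative to library size after TMM scaling in edgeR. These ranges overlapped (log2 fold change of Spns1 KO against WT -0.31, SE 0.18, edgeR adjusted p = 0.225), so Spns1 KO is used below as the label of those libraries. The paper reports loss of Spns1 RNA and protein from proximal tubules of this knockout. Its floxed allele is built to lose exon 3, whereas counts here are for the whole gene. Whether they come from RNA without that exon was not tested. Every proximal tubule marker had counts, and their summed level was 5477 to 8386 CPM in WT, 11190 to 13970 in Spns1 KO and 3256 to 7923 in FeO. Of these 13 genes, 7 were upregulated and 0 downregulated in Spns1 KO, and 2 upregulated and 3 downregulated in FeO. Markers of the other kidney cells and of blood were also present, none of them at 0 throughout. Summed leukocyte markers (10 genes, 3 upregulated in Spns1 KO and 6 in FeO) read 43.7 to 68.6 CPM in WT, 143 to 248 in Spns1 KO and 79.5 to 287 in FeO. Red blood cell markers (5 genes, 5 and 4 upregulated) read 9.40 to 36.5 CPM in WT, 51.8 to 175 in Spns1 KO and 26.3 to 238 in FeO, and collecting duct markers (7 genes, 3 and 7 upregulated) 248 to 418, 253 to 422 and 463 to 1229 CPM in the same order. Endothelium markers (6 genes, 2 and 2 upregulated, 1 downregulated in FeO) read 181.8 to 216.6, 255.9 to 285.1 and 176.5 to 307 CPM. Fibroblast and smooth muscle markers (6 genes, 3 and 1 upregulated) read 82.1 to 111.8, 134.6 to 185.7 and 76.7 to 168.3 CPM. Podocyte markers (5 genes, 2 and 3 upregulated) read 164 to 293.5, 234.4 to 296.7 and 282 to 650.8 CPM. Ranges of loop of Henle and distal tubule markers overlapped WT in both models. The part of these markers in the results below was not tested. In bulk RNA, fewer cells of a type and less RNA per cell cannot be told apart.

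Annotated start sites show the feature for which these mRNAs are known. Among 61 members with an entry in the RefSeq promoter table (GRCm38.p6), 30 had an unbroken run of at least 8 C or T letters within 20 bases of the start, or 49.2%, against 19.1% of 12287 other tested genes. On the opposite strand, read as runs of A or G, the shares were 8.20% and 19.5%. Of the large subunit members 19 of 38 held such a run and of the small 11 of 23. The letters CCGGAAG, the core bound by ETS factors, occurred on either strand in 41.0% of member promoters (300 bases) and 16.9% of the others, and AAGATGG, the core bound by YY1, in 14.8% and 7.69%. Windows of 30 bases, 12 before the start and 18 from it on, show the tract in capitals for 5 members with a run, and then the plain windows of Rpl23 and Rps7, which had none and changed most in Spns1 KO and FeO. They were chosen after the values were seen.
Rpl27a (chr7:109519183-109519212, plus strand): ttcgtgagCTCCTCCCTTTTCCCTTTCTgc
Rpl35 (chr2:39005114-39005143, minus strand): ccccgCCCTTTCCTCTTTCTCTCgaaccag
Rpl15 (chr14:18270969-18270998, minus strand): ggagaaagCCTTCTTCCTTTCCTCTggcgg
Rpl35a (chr16:33056470-33056499, plus strand): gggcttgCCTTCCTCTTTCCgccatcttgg
Rps6 (chr4:86857350-86857379, minus strand): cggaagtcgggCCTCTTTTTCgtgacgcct
Rpl23 (chr11:97782422-97782451, minus strand): aggtccggtcacgtggctgagtgggcgggg
Rps7 (chr12:28635936-28635965, minus strand): tccggtttccacccacctacttccgctgtc
Members with such a run were at a median of 1.32 on the log2 scale in Spns1 KO and at 1.10 in FeO (29 tested), and those without it 1.33 and 1.03 (29 tested).

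In both models members took a larger share of library counts than in WT, while the amount of RNA was not measured. Large subunit members took 0.225, 0.219, 0.173, 0.158 and 0.217% of counts in WT 1 to 5, 0.452, 0.522, 0.498 and 0.317% in the libraries labelled Spns1 KO 1 to 4 and 0.429, 0.283, 0.357 and 0.545% in FeO 1 to 4. Small subunit members took 0.126, 0.123, 0.0988, 0.0904 and 0.122% in WT, 0.273, 0.318, 0.309 and 0.188% in Spns1 KO, and 0.245, 0.162, 0.210 and 0.315% across FeO, in the same order. In either subunit every Spns1 KO and FeO library lay above every WT library, and the lowest of their groups were the library labelled Spns1 KO 4 and FeO 2. These also held the lowest value of their group in 71 and 72 of the 79 tested members. The large to small ratio was 1.75 to 1.79 in WT, 1.61 to 1.69 in Spns1 KO and 1.70 to 1.75 in FeO, so that all Spns1 KO libraries lay below all others.

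**Figure D1:**
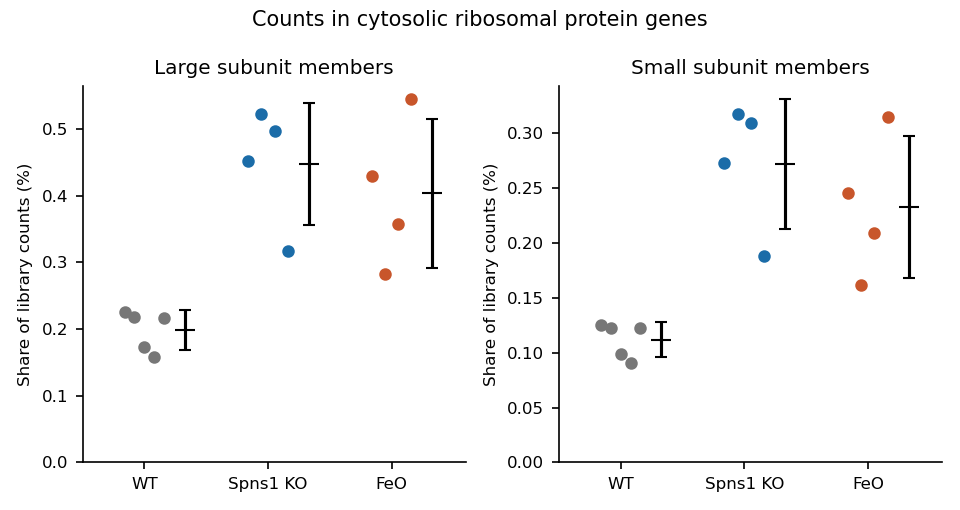
Share of each library's counts (percent) in large and small subunit members. Each point is a library and the bar gives the mean ± SD of its group (WT n = 5, Spns1 KO n = 4, FeO n = 4); all Spns1 KO and FeO points lie above all WT points.

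Against WT, 72 of 79 members were upregulated in Spns1 KO and none was downregulated, where a call needs an edgeR adjusted p under 0.05 and a log2 fold change beyond 0.5. Over all 16468 genes tested, 14.0% were upregulated and 7.55% downregulated. In FeO also 72 of 79 were upregulated and none downregulated, against 22.4% and 19.7% of all genes. At an unadjusted p under 0.05 the number of members that fell was 0 in either model, and DESeq2 and limma-voom called 0 downregulated. The calls covered 70 members in both models, 2 in Spns1 KO and not in FeO (Rps13 and Rpl5), 2 in FeO and not in Spns1 KO (Rpl27 and Rps4l) and 5 in neither. Of these 4, Rps13 and Rps4l also differed between the models. Rpl5 lost its call in 5 and Rpl27 in 8 of 13 fits that left out a library, and both with library totals only. With pseudogene rows added to their parents, Rpl27 was called in Spns1 KO as well (1.46) and Rps13 in FeO. The comparisons share their WT libraries.

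By subunit, 42 of 47 large subunit members were upregulated in Spns1 KO at a median of 1.31 on the log2 scale, and 42 in FeO at 1.10. For the small subunit 30 of 32 were upregulated in either model, with medians of 1.40 and 1.14. All genes tested had medians of -0.05 and -0.01. Without overlap with WT in any library were 70 members in Spns1 KO (13.1% of all genes), 59 in FeO (16.9%) and 55 in both (5.65%).

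**Figure D2:**
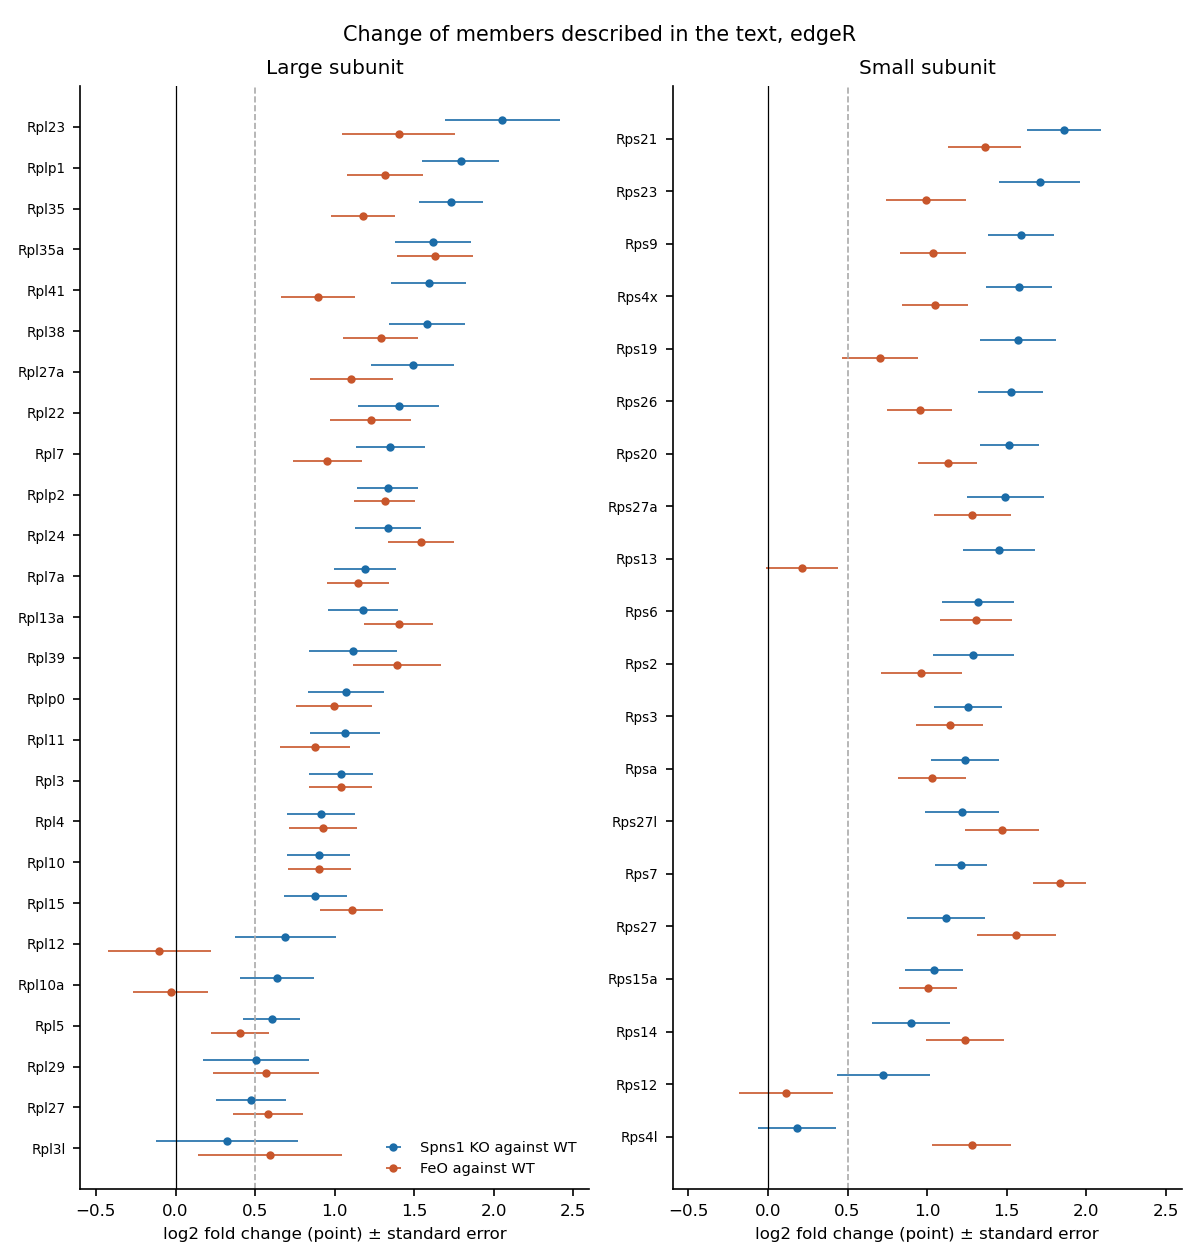
Log2 fold change against WT (points, with standard errors as bars) of 26 large and 20 small subunit members described in the text, ordered by the change in Spns1 KO. The solid line marks 0 and the dashed line the limit of 0.5; Rpl23 was highest in Spns1 KO at 2.05, and Rpl12, Rpl10a, Rps12 and Rps13 lay near 0 in FeO.

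In the large subunit, Rpl23 (chromosome 11 from 97777527 to 97782437 of GRCm38), which also binds Mdm2, showed the largest change of Spns1 KO. It read 98.0, 94.2, 62.2, 55.3 and 79.3 CPM in WT 1 to 5, 305, 366, 324 and 297 CPM in the libraries labelled Spns1 KO 1 to 4, and 115, 87.1, 188 and 433 CPM across FeO 1 to 4. All Spns1 KO libraries lay above all WT libraries, whereas FeO 2 lay inside the WT range. The log2 fold change was 2.05 (SE 0.36, edgeR adjusted p = 0.00135) for Spns1 KO and 1.40 (SE 0.35, edgeR adjusted p = 0.00562) for FeO. Without FeO 4, the highest of its group, the latter was 0.77 and still called. Of the 31-base sequences of Rpl23, 41.7% recurred among 1012 other genes, 610 of them with a mean of at least 100 counts. Most of that share lay in Gm9794, which held 35.2% and was not among the 610. Rplp0, Rplp1 and Rplp2 form the stalk that recruits elongation factors. Rplp1 read 46.8, 46.4, 31.4, 29.2 and 37.0 CPM in WT 1 to 5, 149.6, 151, 140.4 and 87.3 CPM in the libraries labelled Spns1 KO 1 to 4, and 87.8, 63.1, 82.3 and 146 CPM across FeO 1 to 4, with no overlap of either model with WT. Its log2 fold change was 1.79 (SE 0.24, edgeR adjusted p = 0.000411) for Spns1 KO and 1.32 (SE 0.24, edgeR adjusted p = 0.000859) for FeO, while those of Rplp0 and Rplp2 were 1.07 and 0.99 and 1.33 and 1.31, all called.

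Rpl5 and Rpl11, which with 5S RNA form the particle that binds Mdm2, lay below the large subunit medians. Rpl11 (chromosome 4 from 136028265 to 136053428) read 54.8, 57.5, 36.6, 36.2 and 50.4 CPM in WT 1 to 5, 96.3, 124, 112 and 61.6 CPM in the libraries labelled Spns1 KO 1 to 4, and 75.5, 66.3, 87.6 and 116 CPM across FeO 1 to 4. Neither model overlapped WT, and the change was 1.06 (SE 0.22, edgeR adjusted p = 0.004) for Spns1 KO and 0.88 (SE 0.22, edgeR adjusted p = 0.00565) for FeO. Rpl5 stood at 0.60 (SE 0.18, edgeR adjusted p = 0.0268) for Spns1 KO and 0.40 (SE 0.18, edgeR adjusted p = 0.0825) for FeO, the second of which missed the call. The Spns1 KO call was lost without the library labelled Spns1 KO 1, 2 or 3 and without WT 3 or WT 4, and with the replicate block. Of its 31-base sequences 94.8% are found elsewhere too, chiefly in Gm15500. Rpl5 held 23.5% of the summed level of both in WT, and Gm15500 changed by 1.21 (SE 0.22, edgeR adjusted p = 0.0017) for Spns1 KO and 0.98 (SE 0.22, edgeR adjusted p = 0.00267) for FeO. Further large subunit members with known roles were all called in both models, at log2 fold changes, Spns1 KO first and FeO second, of 1.04 and 1.04 for Rpl3, near the peptidyl transferase center, 0.90 and 0.90 for Rpl10, which joins late in maturation, 1.18 and 1.40 for Rpl13a, 1.33 and 1.54 for Rpl24, 1.58 and 1.29 for Rpl38, 1.40 and 1.23 for Rpl22, 1.11 and 1.39 for Rpl39 and 1.59 and 0.89 for Rpl41, the smallest of them. With the dependence on transcript length and GC removed, Rpl10 was called in neither model (0.47 and 0.41) and Rpl41 and Rpl11 not in FeO (0.34 and 0.33).

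In the small subunit, Rps21 rose by 1.86 (SE 0.23, edgeR adjusted p = 0.000387) on the log2 scale in Spns1 KO. Rps6 (chromosome 4 from 86854660 to 86857412), the protein phosphorylated by S6 kinase, read 42.7, 42.8, 30.3, 32.1 and 43.5 CPM in WT 1 to 5, 97.6, 113, 117 and 55.0 CPM in the libraries labelled Spns1 KO 1 to 4, and 109.7, 60.8, 107 and 101 CPM across FeO 1 to 4. Neither model overlapped WT, and the change was 1.32 (SE 0.23, edgeR adjusted p = 0.00119) for Spns1 KO and 1.31 (SE 0.23, edgeR adjusted p = 0.000684) for FeO. Rps3, at the mRNA entry, changed by 1.26 and 1.14, Rpsa, also known as the laminin receptor, by 1.24 and 1.03, Rps2 by 1.29 and 0.96, Rps14 by 0.90 and 1.24, Rps23, in the decoding center, by 1.71 and 0.99, Rps26 by 1.52 and 0.95 and Rps27a, made as a fusion to ubiquitin, by 1.49 and 1.28, all called in both models. Once each library's trend on length and GC was taken out, Rps14 was not called in Spns1 KO (0.34), nor Rps2 (0.47), Rps23 (0.54) and Rps26 (0.44) in FeO. Rps14 also lost its Spns1 KO call without the library labelled Spns1 KO 2 (0.75) or 3 (0.80).

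Per length of transcript, the highest members in WT were Rpl4, Rpl7, Rpl7a, Rps2 and Rps9, at 237 ± 8.69, 224 ± 12.0, 205 ± 9.99, 195 ± 21.3 and 191 ± 16.3 TPM (transcript level relative to the library sum; SD, n = 5). Neighbours in this order differed by less than the sum of their SDs. Their order changed in Spns1 KO, where Rps9 and Rpl7 read 446 and 443 and Rpl4 345. Each level is of the member's own row and leaves out rows that share its sequence. In WT, Rpl10 averaged 32.1 CPM alone and 94.1 CPM summed with Rpl10-ps3. Rps12 averaged 7.96 CPM alone and 44.7 CPM summed with Rps12-ps3 and Rps12l1. The order with such rows included was not tested, so it is uncertain.

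Paralogs of restricted expression were scarce. Rpl10l and Rpl39l, known from testis, held 1 and 0 counts over all libraries. Rpl3l, known from striated muscle, read 0.212 to 0.656 CPM in WT against 74.9 to 101 for Rpl3, and its log2 fold changes of 0.32 and 0.59 were not called. Rps27l, a p53 target, changed by 1.22 and 1.47 beside 1.12 and 1.56 for Rps27, called in both models. Rpl22l1 changed by 0.76 and 1.04 and Rpl36al by 1.45 and 1.41, called in both models, and Rpl7l1 stood at 0.24 and 0.65, called in FeO alone. Rps4l read 3.84, 2.71, 3.50, 3.21 and 4.75 CPM in WT 1 to 5, 4.90, 4.60, 4.24 and 2.57 CPM in the libraries labelled Spns1 KO 1 to 4, and 11.7, 9.70, 7.30 and 6.18 CPM across FeO 1 to 4. FeO lay above WT in every library, whereas Spns1 KO overlapped it, and the log2 fold change was 0.18 (SE 0.25, edgeR adjusted p = 0.616) for Spns1 KO and 1.28 (SE 0.25, edgeR adjusted p = 0.00114) for FeO. Its X-linked relative Rps4x changed by 1.58 and 1.05, called in both.

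Directly between the models, 4 members differed (edgeR, either direction), against 14.9% of all genes. Rps13 and Rps19 were higher in Spns1 KO, by 1.24 (SE 0.24, edgeR adjusted p = 0.00617) and 0.87 (SE 0.25, edgeR adjusted p = 0.033), and Rps4l and Rps7 lower, by -1.10 (SE 0.26, edgeR adjusted p = 0.0136) and -0.62 (SE 0.17, edgeR adjusted p = 0.0288). Rps19, mutated in Diamond-Blackfan anemia, read 41.1, 38.7, 28.6, 23.9 and 31.1 CPM in WT 1 to 5, 91.1, 112, 111 and 75.1 CPM in the libraries labelled Spns1 KO 1 to 4, and 41.7, 33.6, 53.9 and 83.7 CPM across FeO 1 to 4. FeO 4 alone overlapped Spns1 KO. The rise of Rps19 in FeO over WT (0.70) lost the call without WT 3, WT 4, FeO 3 or FeO 4 and with the length and GC trend removed (0.16). Rps7 read 16.3, 19.8, 15.97, 19.0 and 17.8 CPM in WT 1 to 5, 42.0, 47.4, 45.9 and 29.4 CPM in the libraries labelled Spns1 KO 1 to 4, and 76.6, 49.2, 58.7 and 68.4 CPM across FeO 1 to 4, and both models lay above WT. The number that differed was 25 without FeO 4 and 9 without the library labelled Spns1 KO 4, 2 without FeO 1 or without the library labelled Spns1 KO 1, and the calls of Rps19 and Rps7 were lost in several of these fits.

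Most members shared sequence with other rows of the table, among them several that were not called. Over the 79 tested members, a median of 61.5% of the 31-base sequences of a transcript recurred in another gene, and 55 members were above 50%. A read that fits both can be assigned to either, so counts of these members are uncertain. Of the sharing rows examined (mean of at least 100 counts), 22 were called up in both models, 1 down in Spns1 KO and 1 down in FeO. A further 2 were called up in Spns1 KO alone, 3 in FeO alone and 4 in neither. Upregulated over all genes tested were 14.0% in Spns1 KO and 22.4% in FeO. Rps2-ps10 changed by -3.48 (SE 0.72, edgeR adjusted p = 0.00373) in Spns1 KO, and with pseudogene rows added Rps2 went from 1.29 to 1.03. Gm4034, which shares sequence with Rpl24, changed by -1.12 (SE 0.23, edgeR adjusted p = 0.0017) in FeO. Summed with it, Rpl24 had log2 ratios of means of 0.81 and 0.93, in place of fold changes of 1.33 and 1.54. Rps13 (chromosome 7 from 116331505 to 116334195) differed from the processed pseudogene row Rps13-ps1 at 2 of 453 coding bases, shown in capitals in a stretch of 30 bases (coding positions 405 to 434, counted from 1 at the first coding base).
Rps13: cccaccTaattggaaatatgagtcAtccac
Rps13-ps1: cccaccCaattggaaatatgagtcGtccac
Rps13 read 29.7, 25.02, 18.3, 18.5 and 13.4 CPM in WT 1 to 5, 59.4, 61.0, 67.1 and 42.2 CPM in the libraries labelled Spns1 KO 1 to 4, and 23.6, 16.7, 29.6 and 27.4 CPM across FeO 1 to 4. Rps13-ps1 read 0.163, 0, 0, 0.707 and 17.5 CPM in WT 1 to 5, 0.238, 0.0271, 1.03 and 0 CPM in the libraries labelled Spns1 KO 1 to 4, and 42.6, 28.5, 42.7 and 36.9 CPM across FeO 1 to 4. The pseudogene row was high in WT 5 and in all FeO libraries, while Rps13 was lowest in WT 5 and in no FeO library above the WT range. With pseudogene rows added to their parents, Rps13 rose by 1.27 in Spns1 KO and, in FeO, by 1.30, and its difference between the models went from 1.24 to -0.03 (edgeR adjusted p = 0.949). That of Rps7 went from -0.62 to -0.23 (adjusted p = 0.483, edgeR).

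Rps12 held 346 counts per library on average and Rps12-ps3, which GENCODE calls protein coding, 2482. Rps12 alone had a log2 fold change of 0.72 (SE 0.29, edgeR adjusted p = 0.0808) for Spns1 KO and 0.11 (SE 0.29, edgeR adjusted p = 0.77) for FeO, neither called. Rps12-ps3 read 39.7, 36.6, 27.9, 25.01 and 28.9 CPM in WT 1 to 5, 118, 126, 126 and 88.7 CPM in the libraries labelled Spns1 KO 1 to 4, and 50.5, 34.8, 64.3 and 108 CPM across FeO 1 to 4. Its change was 1.86 (SE 0.26, edgeR adjusted p = 0.00048) for Spns1 KO and 1.02 (SE 0.26, edgeR adjusted p = 0.00537) for FeO, and with pseudogene rows added Rps12 was called in both models at 1.69 and 0.88.

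Rpl10a read 57.0, 58.8, 35.9, 26.1 and 44.8 CPM in WT 1 to 5, 64.2, 78.9, 71.4 and 62.4 CPM in the libraries labelled Spns1 KO 1 to 4, and 31.8, 39.1, 39.7 and 63.8 CPM across FeO 1 to 4, with overlap between FeO and WT. Its log2 fold change was 0.64 (SE 0.23, edgeR adjusted p = 0.0595) for Spns1 KO and -0.03 (SE 0.24, edgeR adjusted p = 0.923) for FeO, neither called. Rpl10a-ps1, with 5 differences over 654 aligned bases, changed by 1.49 (SE 0.23, edgeR adjusted p = 0.000689) for Spns1 KO and 1.06 (SE 0.23, edgeR adjusted p = 0.00221) for FeO. With that row added Rpl10a was called in Spns1 KO (0.95) and not in FeO (0.40). Rpl12 stood at 0.69 (SE 0.32, edgeR adjusted p = 0.126) for Spns1 KO and -0.10 (SE 0.32, edgeR adjusted p = 0.811) for FeO, neither called, whereas Gm10275, which differs from it at 1 of 635 aligned bases and not in the coding part, changed by 1.22 (SE 0.22, edgeR adjusted p = 0.00169) for Spns1 KO and 0.98 (SE 0.22, edgeR adjusted p = 0.00299) for FeO. Gm10275 does not carry the -ps name and was not added.

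Rpl29 differed from Gm13841 at 3 of 480 coding bases, 1 of them in capitals in coding positions 66 to 95.
Rpl29: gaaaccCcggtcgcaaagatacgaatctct
Gm13841: gaaaccAcggtcgcaaagatacgaatctct
Gm13841 read 0.0272, 0.0308, 0, 0 and 0 CPM in WT 1 to 5, 15.1, 32.7, 16.5 and 13.1 CPM in the libraries labelled Spns1 KO 1 to 4, and 5.90, 0.454, 10.2 and 0 CPM across FeO 1 to 4, and Gm8210, identical to it over all 483 bases, held the same values. Rpl29 read 43.7, 40.8, 31.9, 29.3 and 27.9 CPM in WT 1 to 5, 61.0, 18.5, 65.7 and 51.8 CPM in the libraries labelled Spns1 KO 1 to 4, and 31.5, 42.1, 42.0 and 90.6 CPM across FeO 1 to 4. The library labelled Spns1 KO 2 was lowest in Rpl29 and highest in Gm13841. Rpl29 had a log2 fold change of 0.50 (SE 0.33, edgeR adjusted p = 0.283) for Spns1 KO and 0.57 (SE 0.33, edgeR adjusted p = 0.171) for FeO, neither called. Rpl10 is 100% identical to Rpl10-ps3 over 740 aligned bases, and the latter held 3860 counts per library on average against 1738.

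**Figure D3:**
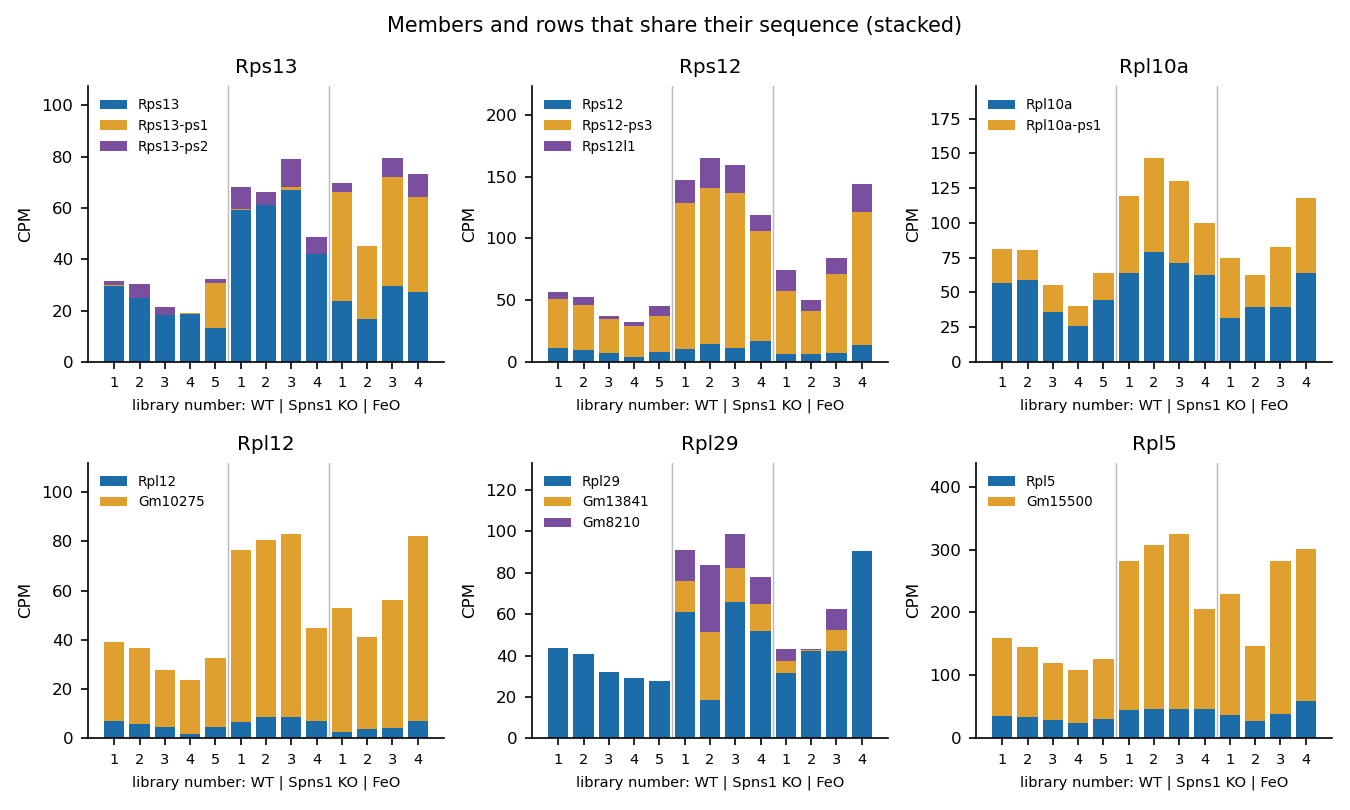
Level (CPM, stacked bars) of 6 members and of rows that share their sequence, for WT 1 to 5, Spns1 KO 1 to 4 and FeO 1 to 4. The Rps13-ps1 part is large in WT 5 and all FeO libraries, and Gm15500, beside Rpl5, averages 6037 counts per library against 1350.

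Members with a low share of recurring 31-base sequences had medians near those of the rest. The 6 tested members under 10% had median log2 fold changes of 1.25 and 1.14, and 5 of them were called in either model, all but Rpl3l. These 6 are not free of shared sequence, since the share is relative to transcript length. Among them, the reference transcripts of Rps15a (5130 bases), Rpl22 (2048) and Rps3 (1908) are long. Sequences of Rps15a recurred in 206 other genes and those of Rps3 in 347. The 55 members above 50% had medians of 1.34 and 1.10. Members with a snoRNA gene inside (29) had medians of 1.26 and 1.13, and those without (50) 1.39 and 1.10.

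Members are short. Their transcripts had a median of 775 bases, against 2789 for all tested genes with a length, and a median of 161 uridines, which carry the tag, against 672. Short genes as a group rose as well. Of 1445 tested genes with a transcript under 1000 bases, members included, 39.5% were called up in Spns1 KO and 48.0% in FeO. Their median log2 fold changes were 0.51 and 0.69. The slope of log2 level on log2 transcript length over other genes was 0.0597 to 0.279 in WT, -0.12 to 0.0296 in Spns1 KO and -0.183 to -0.0902 in FeO, and WT 3 and 4 had the steepest. Its part in the rise was not tested beyond the fit that removes it. After each library was freed of a smooth dependence on transcript length and GC, 68 members were upregulated in Spns1 KO (all genes 11.6%) and 55 in FeO (19.4%), with medians of 0.92 and 0.63 in place of 1.34 and 1.11. Rpl10a was then downregulated in FeO (-0.57). Split by subunit, 39 large and 29 small members stayed upregulated in Spns1 KO and 32 and 23 in FeO. Among transcripts of 600 to 800 bases, where the members' median length lies, the 19 members had medians of 1.27 and 1.03. The 411 other genes of that length had 0.65 and 0.77, so the gap was smaller in FeO. With the trend removed these were 0.74 and 0.48 for members and 0.17 and 0.26 for other genes. Among transcripts of 800 to 1000 bases, the 15 members had medians of 1.33 and 1.14, and the 541 other genes 0.51 and 0.69. The reference transcripts of Rps15a (5130 bases) and Rps20 (3706) are unusually long, so their place on this scale is uncertain.

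**Figure D4:**
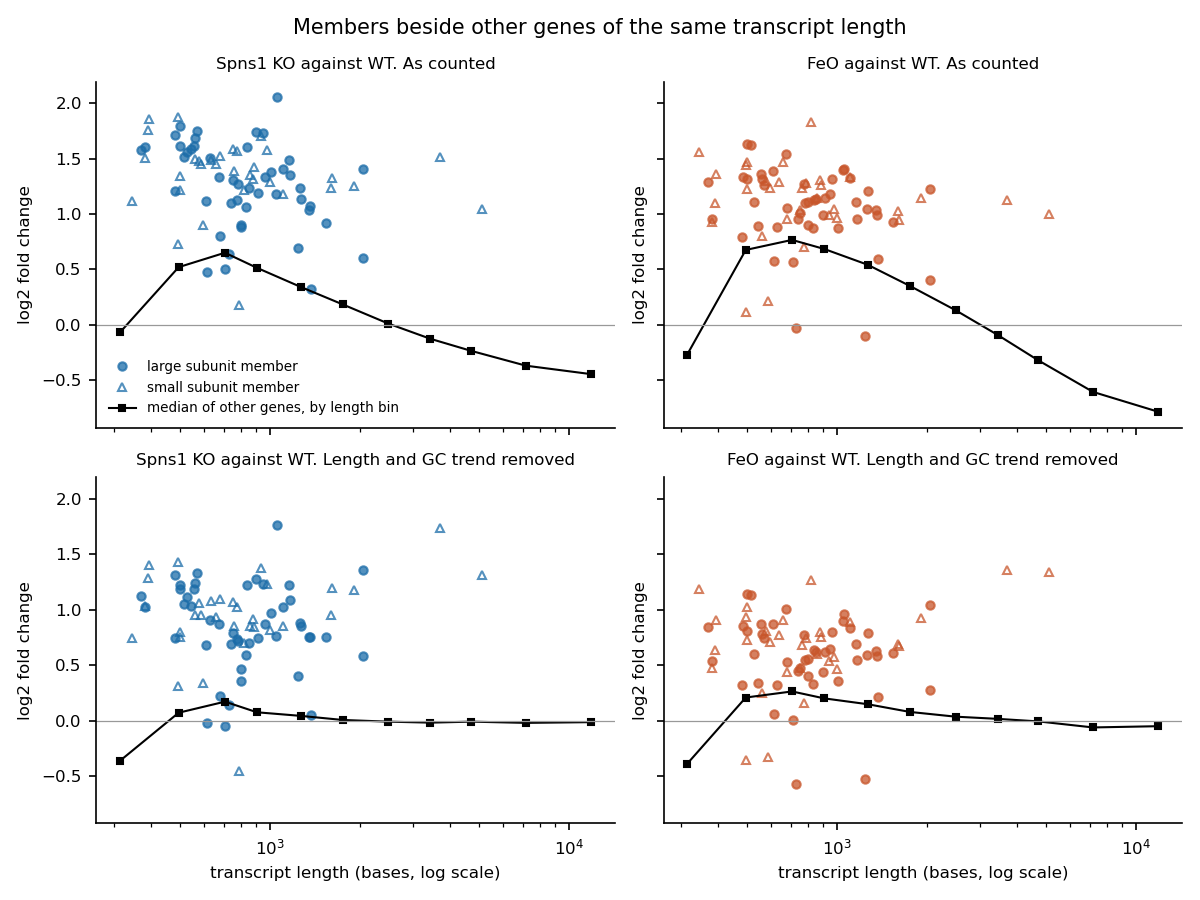
Log2 fold change against transcript length (bases, log axis) for tested members (filled circles large, open triangles small subunit) in Spns1 KO and FeO, as counted (top) and with the length and GC trend removed (bottom). Black squares are medians of other genes by length bin; they rise over the shortest bins and then fall with length in the top panels, and most members lie above them in all 4 panels.

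The rest of the translation machinery moved less evenly. All genes tested had 14.0% and 22.4% upregulated and 7.55% and 19.7% downregulated in Spns1 KO and FeO. Ribosomal protein genes outside the rule had 5 of 10 upregulated and 0 downregulated in Spns1 KO (median log2 fold change 1.11), and 6 and 0 in FeO (median 1.20). Fau changed by 1.18 and 1.36, called in both, and Rps3a1 by 1.59 and 0.92, also called in both. Rack1, a scaffold on the small subunit, was called in FeO (0.77) and not in Spns1 KO (0.61).

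Other 5' TOP genes had 13 of 27 upregulated and 0 downregulated in Spns1 KO (median log2 fold change 0.51), and 19 and 0 in FeO (median 0.87). Tpt1, a TOP gene of no ribosome role, changed by 1.13 and 1.23, Eef1b2, an elongation factor subunit, by 1.04 and 1.09 and Btf3 by 0.76 and 1.52, called in both models. Mitochondrial ribosomal proteins had 49 of 79 upregulated and 1 downregulated in Spns1 KO (median log2 fold change 0.65), and 65 and 1 in FeO (median 1.03), with Mrpl52 at 1.57 and 1.27 and Mrpl38 at -1.69 and -1.36, the latter downregulated in both models. Freed of the trend on length and GC, 27 and 53 mitochondrial ribosomal proteins were upregulated in Spns1 KO and FeO, 8 and 16 other TOP genes, and 3 and 4 of the ribosomal protein genes outside the rule. Of genes named for these and the following lists, Fau, Rpl22l1, Btf3 and Wdr43 then lost their call in Spns1 KO, and Rps3a1, Rack1 and Eif3a in FeO. Translation factors had 11 of 49 upregulated and 0 downregulated in Spns1 KO (median log2 fold change 0.22), and 28 and 2 in FeO (median 0.58). Eif3f changed by 0.81 and 1.32, called in both, and Eif3a stood at 0.16 and -0.70, downregulated in FeO.

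Genes that make and assemble ribosomes did not follow the members. Assembly factors had 7 of 81 upregulated and 3 downregulated in Spns1 KO (median log2 fold change 0.00), and 17 and 8 in FeO (median 0.08), and ribosomal RNA transcription genes 6 of 20 upregulated and 1 downregulated in Spns1 KO (median log2 fold change 0.19), and 7 and 4 in FeO (median 0.16). Nop10, of the box H/ACA particle, changed by 1.13 and 1.74 and Wdr43, of the processome, by -0.54 and -0.69. Chaperones and importers had 4 of 19 upregulated and 0 downregulated in Spns1 KO (median log2 fold change 0.07), and 6 and 2 in FeO (median 0.21). Regulators of ribosomal protein gene output had 0 of 29 upregulated and 8 downregulated in Spns1 KO (median log2 fold change -0.31), and 2 and 12 in FeO (median -0.39), with Larp4, a La-related RNA-binding protein, at -0.74 and -1.27, downregulated in both. Their transcripts were long (median 4451 bases), and other genes of 4000 to 6000 bases had medians of -0.23 and -0.32. With the trend removed, 5 and 7 regulators were downregulated, at medians of -0.21 and -0.22, and Larp4 was called in FeO alone (-0.28 and -0.56). Surveillance and p53 genes had 0 of 17 upregulated and 1 downregulated in Spns1 KO (median log2 fold change -0.19), and 1 and 6 in FeO (median -0.49). Their transcripts had a median of 3278.5 bases. With the trend removed, 1 and 4 of them were downregulated, at medians of -0.12 and -0.30. Cdkn1a, the p53 target p21, fell by 1.98 on the log2 scale in Spns1 KO (edgeR adjusted p = 0.00263), and Mdm2 by 0.91 in FeO (adjusted p = 0.00482, edgeR).

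**Figure D5:**
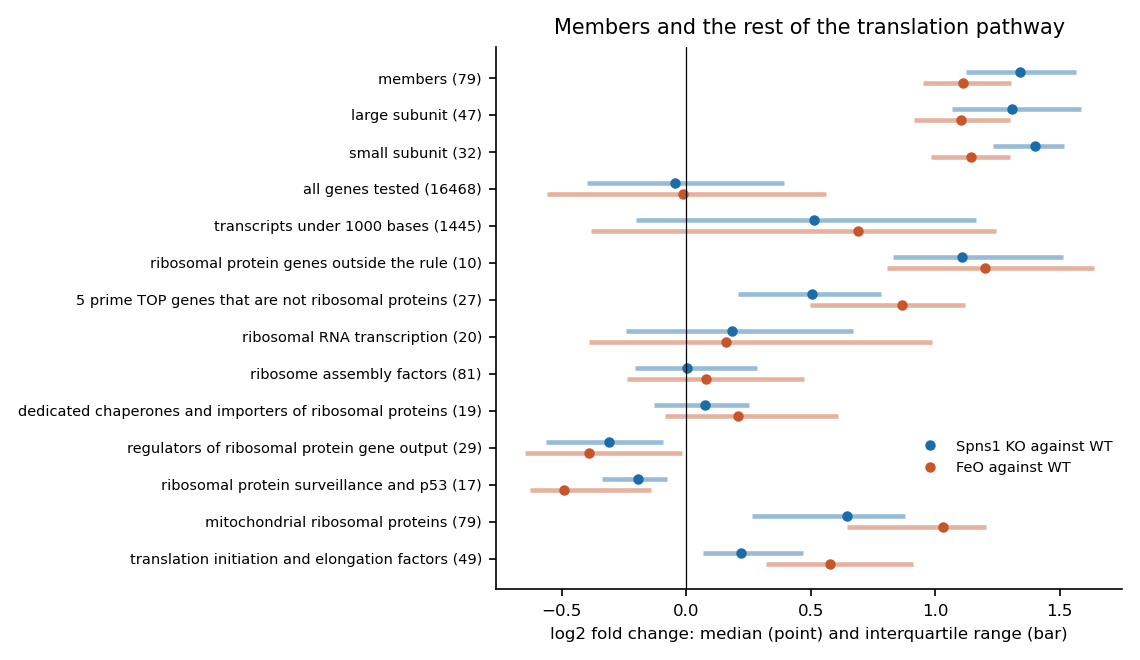
Median log2 fold change (points) and interquartile range (bars) in Spns1 KO and FeO for members, subunits, all genes tested, short genes and 9 lists of the translation pathway, with the number tested in parentheses. Members stand at 1.34 and 1.11, ribosome assembly factors near 0 and regulators below 0.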

How the data were processed

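RNA tagged with 4-thiouracil was captured, poly-A selected and sequenced in paired-end reads from 13 mouse kidney libraries. The authors deposited 1 estimated count per gene symbol and library, not normalized. Per the labels they used bcl2fastq 2.19, kallisto 0.44.0 and DESeq2 on GRCm38, whereas the methods name STAR and HTSeq for alignment and counting. The values were whole as deposited.

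Genes kept by filterByExpr were tested with edgeR's quasi-likelihood test (version 4.0.16) in 1 fit of all libraries, with TMM scaling and Benjamini-Hochberg adjustment over all genes. Standard errors were taken from the F statistic. The study used DESeq2 with the same limits. Level per length used GENCODE M21 transcripts. Length and GC trends were smooth fits (mgcv, basis 8) per library. The tests were tested on simulated data. The members and lists were chosen with earlier results of these data known. Named genes were members with listed roles or paralogs, the 3 highest and 3 lowest per subunit and comparison with a mean of at least 100 counts, the 5 highest per length in WT, and the extreme called genes of each list. Some genes that this rule names are not reported here. Reads that fit near-identical rows cannot be assigned to 1 of them from sequence alone. Alternatives were other scalings, DESeq2, limma-voom, glmTreat, no filter and 2 groups alone. Others were pseudogene rows added to their parents, trends removed, a replicate block (without WT 5) and libraries left out. Totals of 23068023 to 71296474 counts set the depth. RefSeq supplied start sites, matched by symbol.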

Additional observations from a re-analysis of the deposited data

Results flagged for a closer look

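Within groups, 153 sets of 4 or 5 library values (the 2 shares and the levels of 49 named members in 3 groups) were screened for a library far from the others, of which chance would flag about 1 in 20. There were 6. In Spns1 KO the library labelled Spns1 KO 4 stood apart as lowest for Rpl4 (189 CPM), Rpl7a (126 CPM), Rplp1 (87.3 CPM), Rps2 (111 CPM) and Rps29 (49.7 CPM). In FeO, FeO 4 stood apart as highest for Rps12 (14.0 CPM).

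Between the models, 4 members changed by different amounts (edgeR test of Spns1 KO against FeO). Rps13 was higher in Spns1 KO by 1.24 on the log2 scale and Rps19 by 0.87. Rps4l differed by -1.10 and Rps7 by -0.62. With pseudogene rows added, the difference of Rps13 was -0.025 (edgeR adjusted p = 0.949). The call of Rps19 was lost in 6 and that of Rps7 in 3 of 13 fits that left out a library.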

How the results depend on the processing

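Members upregulated numbered 70 to 74 in Spns1 KO and 70 to 73 in FeO when each library was left out in turn, with median log2 fold changes of 1.27 to 1.504 and 0.99 to 1.27 and 0 downregulated. Freed of the trend on length and GC content, members stood at medians of 0.92 and 0.63, and 1 member was downregulated in FeO. Leaving out WT 3 and 4, which was chosen after seeing the data, gave 64 and 66 upregulated members. Scaling choices gave 71 or 72. The test against a log2 fold change of 0.5 (glmTreat) gave 63 and 59.

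Same-numbered libraries did not deviate together (correlations -0.296 to 0.256), so numbers were not taken to pair them. A replicate block gave 71 and 70 upregulated members and 2 that differed between the models. Fits with this block left out WT 5, the only library of its number. The replicate block with the length and GC trend removed gave 62 and 41 upregulated members, medians of 0.91 and 0.62, and 7 that differed.

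Members differing between Spns1 KO and FeO numbered 1 with glmTreat, 2 with only the 2 groups compared, 2 with pseudogene rows added, 15 with the length and GC trend removed, and 2 to 25 with a library left out. The cause was not tested, other than that pseudogene rows added include the reads of Rps13-ps1.

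Signs turned only for changes that were not called, and for Rps13 between the models (-0.025 with pseudogene rows added). In FeO, Rpl10a was 0.0317 with no filter, 0.40 with pseudogene rows added, 0.0097 with the replicate block and -0.25 to 0.11 with a library left out. Rpl12 ranged from -0.40 to 0.10 and Rps12 from -0.20 to 0.26 with a library left out, and Rps12 was -0.15 without WT 3 and 4. With the length and GC trend removed, Rps12 was -0.36 and Rps13 -0.33 in FeO, and with the replicate block as well -0.44 and -0.48, and Rpl29 -0.16. In Spns1 KO, Rpl27 was -0.0199, Rpl29 -0.0442 and Rps4l -0.45 with the trend removed, and -0.0119, -0.24 and -0.42 with the replicate block as well, and Rpl3l ranged from -0.18 to 0.65 with a library left out. The cause was not tested. Low counts limit Rpl3l, Rpl12, Rps4l and Rpl27.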
